A study of Brachypodium distachyon with 6 samples.

Results

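The transcripts described here are the 100 that were most strongly lower in Brachypodium distachyon roots after treatment with 2,4-dichlorophenoxyacetic acid (2,4-D), out of 42868 transcripts counted. They were chosen from the counts themselves. Of the 42868 transcripts, 14661 had a level of at least 2 CPM (counts scaled to a library total of 1000000) in each of the 3 untreated libraries, and these were ranked by their lowest untreated CPM over their highest 2,4-D CPM, with 2,4-D values under 0.25 CPM set to 0.25. The 100 highest ratios, from 99 loci, make up the set. Because the choice used all 6 libraries, the difference between the groups is given below as a description and no test of it is reported for the set.

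The 2,4-D group was roots of line Bd21, the reference line of this small temperate grass, from plants grown for 7 days on Fahraeus medium low in nitrogen and then soaked whole in 50 µM 2,4-D for 1 h. Roots were collected 7 days later, when they bore nodule-like structures; the labels name these structures as the source, while the protocol speaks of roots that contain them. The untreated group was Bd21 roots grown on the same medium and collected on the same day, and the labels do not mention a soak without hormone for it. Each group had 3 biological replicates with separately isolated RNA, so cells of different kinds are mixed. In such bulk RNA, fewer cells of a type and less RNA per cell cannot be told apart.

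Auxin is the hormone that positions new organs in roots: its local accumulation starts lateral roots, restrains elongation of the main root and promotes root hairs. It acts through nuclear receptors that mark Aux/IAA repressor proteins for destruction, which frees auxin response factors to act on their target genes. 2,4-D is a synthetic auxin that persists in tissue longer than the natural hormone and is exported poorly from cells. In many plants it turns lateral root founder tissue into rounded outgrowths, and grasses do not form nodules with rhizobia naturally.

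The transcript identifiers carry no gene names, and 0 of them matched the RefSeq gene table used here. No role is therefore given to any transcript, and neither root nor shoot marker genes could be looked up to check the labelled tissue. Transcripts are described by their identifiers, their positions in annotation version 2.1, their exons and their values.

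Library totals ran from 12528548 to 14146109 counts, so that 3 counts in a library corresponded to 0.212 to 0.239 CPM. The 2,4-D replicate 3 library stood apart from its group. Over the 20061 transcripts tested, its log2 CPM correlated with 2,4-D replicates 1 and 2 at 0.916 and 0.905 (Pearson's r). Between those replicates r was 0.976. The untreated libraries were also spread, at 0.955 for replicates 1 and 2, 0.920 for 1 and 3, and 0.940 for 2 and 3. All 100 transcripts passed the expression filter of the whole-table test, which kept those 20061. In that test edgeR called 77 of the 100 lower, where 0.703% of all tested transcripts were called lower (an adjusted p under 0.05 by the quasi-likelihood test with Benjamini-Hochberg adjustment). The choice used the same contrast, so the count says nothing beyond the ranking. The number called depended on single libraries. Leaving out untreated replicate 1 left 18 calls (0.111% of all tested), leaving out replicate 3 left 53 (0.456%), and leaving out replicate 2 left 0 (0.0%). In that fit edgeR put 1249 of 20667 transcripts lower at an unadjusted p under 0.05, among them all 100, which the choice on the same contrast favours. For the 2,4-D libraries the calls came to 3 without the first replicate (0.0145%), 10 without the second (0.0485%) and 45 without the third (0.302%). A block for the replicate number left 40 (0.304%), and the DESeq2 Wald test called all 100 (5.08%). Scaling by DESeq2 size factors gave 80 (0.773%), library totals 76 (0.598%) and no low-count filter 78 (0.548%). The limma voom fit called 82 (0.852%). By the rule the groups do not overlap in any of the 100, as was the case, in the direction of lower 2,4-D values, for 11.8% of the 14661 ranked transcripts.

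**Figure D1:**
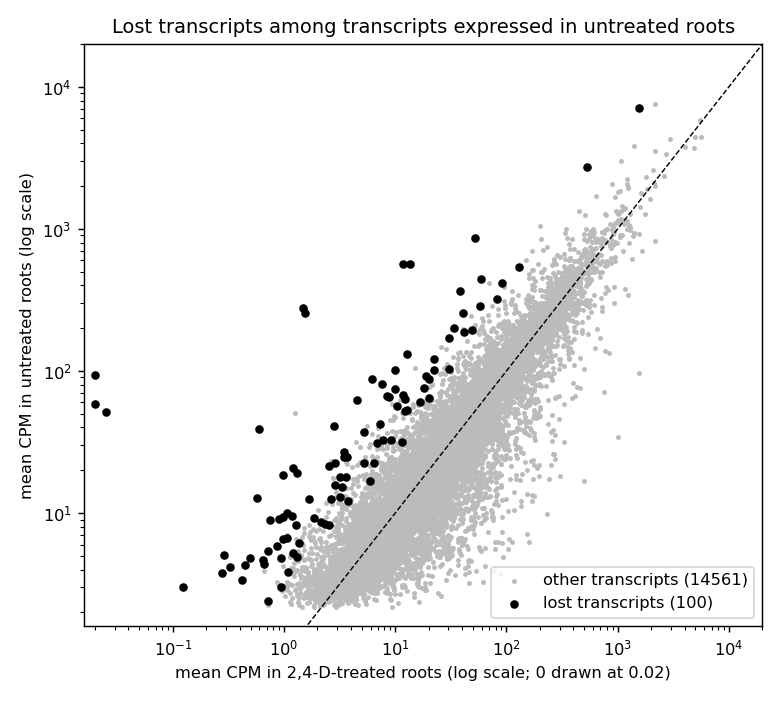
Each point is a transcript with at least 2 CPM in every untreated library, with its mean CPM in 2,4-D-treated roots across and its mean CPM in untreated roots upward, both on log scales, and the dashed line marks equal values. The 100 lost transcripts (black) lie above the line and run from 2.40 to 7055 CPM untreated, and the 14561 others (grey) lie mostly around it.

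The set as a whole held 0.385%, 0.337% and 0.254% of all counts in 2,4-D replicates 1, 2 and 3, against 1.84%, 1.79% and 1.90% in untreated replicates 1, 2 and 3. The means were 0.325% ± 0.0660 with 2,4-D and 1.84% ± 0.0559 in untreated roots (SD, n = 3 each). The set thus kept 17.7% of its untreated share, a loss of 1.52 percentage points of the root's counts. The lowest share was in 2,4-D replicate 3, the library that stood apart, and without it the 2,4-D mean was 0.361%. Over all 6766 ranked transcripts with a lower mean in 2,4-D-treated roots, the decreases summed to 16.3% of counts, of which the 100 transcripts made up 9.28%.

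Most of that share came from a few transcripts. Bradi4g09257.1 (chromosome 4, 8595045 to 8595964, minus strand, 2 exons, 721 bp of exon) had 2023, 1582 and 1041 CPM in 2,4-D replicates 1, 2 and 3, against 6744, 6282 and 8139 CPM in untreated replicates 1, 2 and 3. It alone held 38.3% of the untreated counts of the set. Bradi1g42970.1 (chromosome 1, 40628351 to 40632091, 4 exons) had 570.7, 521 and 495 CPM with 2,4-D, against 2409, 2078 and 3684 CPM untreated. Both had a large residue, with 21.9% and 19.4% of the untreated mean left, and together they held 53.1% of the untreated counts of the set. Without them the other 98 transcripts held 0.117% ± 0.0147 of counts with 2,4-D and 0.864% ± 0.128 untreated (SD, n = 3 each), so that 13.6% of their share was left.

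**Figure D2:**
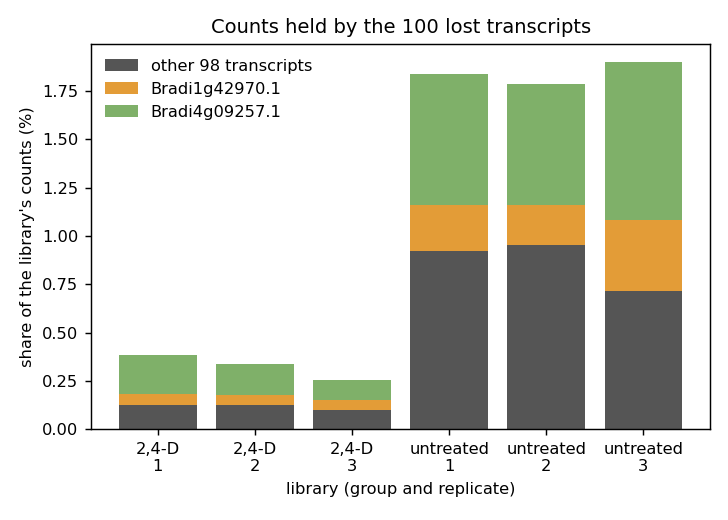
Stacked bars give the percentage of each library's counts held by the 100 transcripts, with the 2 most abundant drawn apart from the other 98. The bars of the 3 2,4-D libraries reach 0.254% to 0.385% and those of the 3 untreated libraries 1.79% to 1.90%.

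Untreated levels covered a wide range. The mean CPM over the untreated libraries had a median of 28.8 in the set (quartiles 9.08 and 88.7), against 22.8 in the ranked transcripts (quartiles 8.86 and 63.1). High levels were more frequent: 23 of the 100 had a mean of 100 CPM or more, against 16.1% of the ranked transcripts. Low levels were as frequent as elsewhere, with 29 of the 100 at 10 CPM or less, against 28.3%. Per kb of exon, the untreated level had a median of 20.1 CPM per kb, against 14.2 in the ranked transcripts. The full annotated exonic length was used for every level per kb. Where transcripts share exonic bases, fragments there were not counted, so these levels are too low. On that scale Bradi4g09257.1 stood highest at 2148 CPM per kb with 2,4-D and 9785 untreated, followed by Bradi1g42970.1 at 195.5 and 1006, and by Bradi4g06533.1 at 16.2 and 793.

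The residue with 2,4-D had a median of 16.0% of the untreated mean (quartiles 10.2% and 22.9%, highest 36.6%), where the ranked transcripts had a median of 103.3%. Of the 100, 10 kept at most 5% and 83 kept at most 25%. In absolute terms, 14 had at most 1 CPM in every 2,4-D library, 32 at most 2 CPM and 63 at most 10 CPM, and 5 were still above 100 CPM in a 2,4-D library. Complete loss was rare. Only Bradi3g10520.1 and Bradi4g43620.2 had 0 counts in all 3 2,4-D libraries, and 4 of the 100 had at most 3 counts in each of them.

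The 8 highest ratios ran from 22.5 to 81.8, and the next one was 12.5. The first of all, Bradi3g10520.1 (chromosome 3, 8706041 to 8707048, minus strand, 2 exons, 999 bp), had 0 counts in each 2,4-D library, against 206.1, 54.4 and 20.4 CPM in untreated replicates 1, 2 and 3. Its untreated mean was 1254 times a floor of 3 counts over the 2,4-D libraries together. That mean rests largely on untreated replicate 1, since the 3 untreated values spread 10.1-fold. The edgeR test did not call this transcript. Bradi4g43620.2 (chromosome 4, 47385017 to 47389440, minus strand, 15 exons) had 0 counts with 2,4-D, against 121, 37.2 and 17.6 CPM untreated, in the same order of libraries. Bradi1g64487.1 (chromosome 1, 63969440 to 63970755, plus strand, 1 exon) had 1, 0 and 0 counts with 2,4-D, against 113.02, 29.1 and 13.1 CPM untreated.

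The next 3 kept a trace. Bradi4g06536.1 (chromosome 4, 5497429 to 5498719, 3 exons) had 2.70, 1.52 and 0.460 CPM with 2,4-D, against 479, 172 and 118 CPM untreated. Bradi4g02110.1 (chromosome 4, 1388267 to 1390534, 3 exons) had 0.825, 0.434 and 0.537 CPM with 2,4-D, against 57.3, 36.4 and 23.1 CPM untreated. Bradi4g26380.1 (chromosome 4, 31668613 to 31674703, plus strand, 17 exons) had 1.57, 2.0996 and 0.767 CPM with 2,4-D, against 567, 205 and 57.1 CPM untreated. In each of these 6 transcripts untreated replicate 1 was the highest of its group and replicate 3 the lowest.

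The last 2 of the 8 had the highest untreated levels per kb among them, at 793 CPM per kb for Bradi4g06533.1 and 430.0 for Bradi4g43610.1. Bradi4g06533.1 (chromosome 4, 5488940 to 5489929, 3 exons) had 15.0, 13.8 and 6.21 CPM with 2,4-D, against 665, 693 and 352 CPM untreated. Bradi4g43610.1 (chromosome 4, 47380537 to 47382182, 3 exons) had 13.5, 15.4 and 12.04 CPM with 2,4-D, against 889.6, 473 and 347 CPM untreated. Of the 8, 6 lie on chromosome 4 and 7 had their untreated values in the order replicate 1, 2, 3 from high to low. That order held for 13 of the other 92 and for 18.5% of the ranked transcripts.

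**Figure D3:**
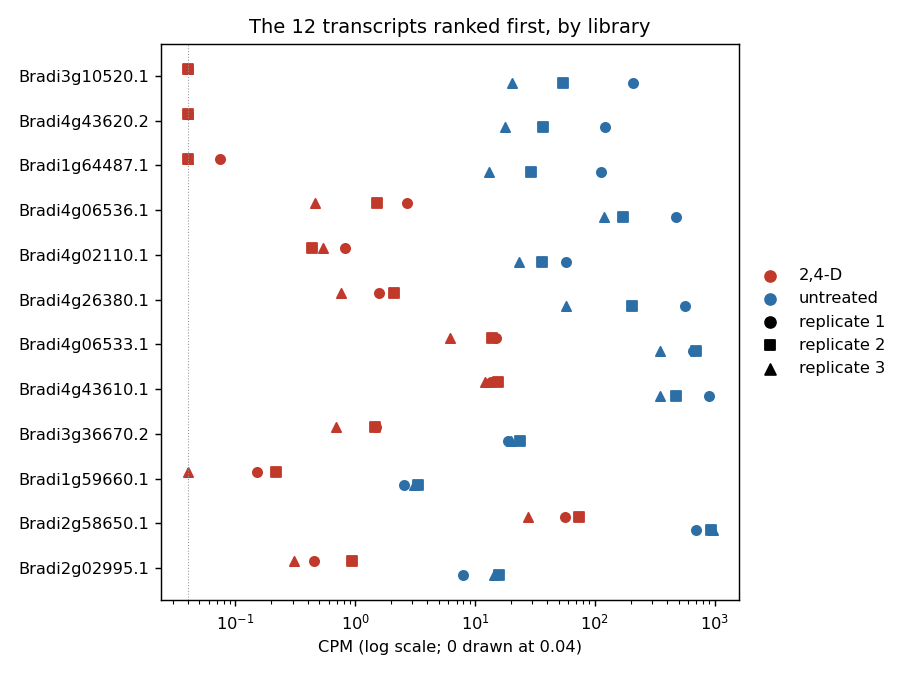
CPM of the 12 transcripts with the highest ratios on a log scale, with 2,4-D libraries in red above untreated libraries in blue and a marker shape for each replicate number. No red point reaches a blue one in any row, and the blue points of the first 6 rows run from replicate 3 to replicate 1.

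The spread among the untreated libraries of these transcripts was wide. An untreated replicate 1 at least 5 times as high as replicate 3 was found in 75 ranked transcripts, 4 of them in the set (Bradi3g10520.1, Bradi4g43620.2, Bradi1g64487.1 and Bradi4g26380.1). Of the other 71, 2 (2.82%) had all their 2,4-D values below all their untreated values, against 11.8% of all ranked transcripts. The 4 of the set do so by the rule and are not in that count. A wide untreated spread also makes overlap of the groups more likely, so nothing is concluded from it. Over the whole set the median spread was modest, at 1.73-fold between the highest and the lowest untreated library, against 1.53-fold in the ranked transcripts. Untreated replicate 2 was the highest library of its group for 43 of the 100, replicate 1 for 32 and replicate 3 for 25. In the ranked transcripts replicate 3 was the most frequent, at 39.9%, against 29.6% for replicate 2 and 30.5% for replicate 1. Replicate 3 was the lowest 2,4-D library for 66 of the 100, against 54.6% of the ranked transcripts, and what part the distance of that library from the other 2,4-D libraries has in this was not tested.

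Transcripts lower in the ranking had smaller ratios. Bradi3g36670.2 (chromosome 3, 39102952 to 39104298, 3 exons, of which 169 bp are its own) had 1.4999, 1.45 and 0.690 CPM with 2,4-D, against 18.7, 23.7 and 19.8 CPM untreated. Bradi1g59660.1 (chromosome 1, 58944069 to 58945517, 1 exon) lay near the lower limit of the choice, with 2, 3 and 0 counts with 2,4-D, against 2.55, 3.32 and 3.11 CPM untreated. In both, the highest untreated library was at most 1.30 times the lowest. Bradi2g58650.1 (chromosome 2, 56519157 to 56520498, 2 exons) had 55.9, 74.3 and 27.5 CPM with 2,4-D, against 699, 939 and 961 CPM untreated, and kept 6.07% of its untreated mean.

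The 10 with the highest untreated CPM also included these. Bradi4g05733.1 (chromosome 4, 4784371 to 4785907, 2 exons) averaged 129 ± 28.6 CPM with 2,4-D and 536 ± 118 CPM untreated. Bradi1g20010.1 (chromosome 1, 16013157 to 16014734, 2 exons) averaged 58.9 ± 15.6 and 445 ± 205 CPM in the same order. Bradi3g39210.1 (chromosome 3, 41624572 to 41628435, 4 exons) averaged 91.7 ± 26.2 CPM with 2,4-D and 416 ± 67.9 CPM untreated. In all 3, each 2,4-D library lay below each untreated one, as the choice requires. Bradi3g38310.2 (chromosome 3, 40898361 to 40901326, 7 exons) averaged 38.0 ± 22.5 CPM with 2,4-D and 367 ± 227 CPM untreated. Its untreated replicate 2 stood at 629 CPM, well above 244 and 229 CPM in the other untreated libraries. Bradi2g04380.1 (chromosome 2, 3110768 to 3112544, 4 exons) averaged 82.9 ± 27.8 CPM with 2,4-D and 320 ± 22.7 CPM untreated (SD, n = 3 for each mean of this paragraph).

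At the edge of the set the ratio was continuous. Bradi3g20867.1, Bradi4g26670.4 and Bradi5g20440.2, ranked 98 to 100, had ratios of 2.33, 2.33 and 2.31. Bradi3g09451.1, Bradi2g47080.1 and Bradi4g07145.1, the next 3 in the ranking and left out, had ratios of 2.30, 2.29 and 2.29. Of all ranked transcripts, 138 had a ratio of at least 2.

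Each library was also left out in turn, 100 transcripts were chosen from the other 5, and the library left out was read against the other group. The other group's value in each ratio is one that chose the list, so it was selected to be high for untreated roots or low for 2,4-D. A high share over that of all transcripts is thus partly built in, and the figures are a description. In 2,4-D replicates 1, 2 and 3, 93, 72 and 85 of the 100 chosen without them were at least 2-fold below the lowest untreated value, against 2.78%, 1.86% and 6.55% of all transcripts ranked in the same way. In untreated replicates 1, 2 and 3, 79, 81 and 78 of the 100 were at least 2-fold above the highest 2,4-D value, against 2.36%, 3.36% and 4.45%. The median ratio in the library left out was 4.19, 3.42 and 5.62 for the 2,4-D replicates and 3.35, 3.89 and 3.73 for the untreated ones. In 2,4-D replicate 2 and in untreated replicates 1 and 3 it was below the median in the libraries used, which were 3.99, 3.95 and 3.93. The lists shared 68 to 88 transcripts with the full set. Each such reading is a single library, and no test was made.

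**Figure D4:**
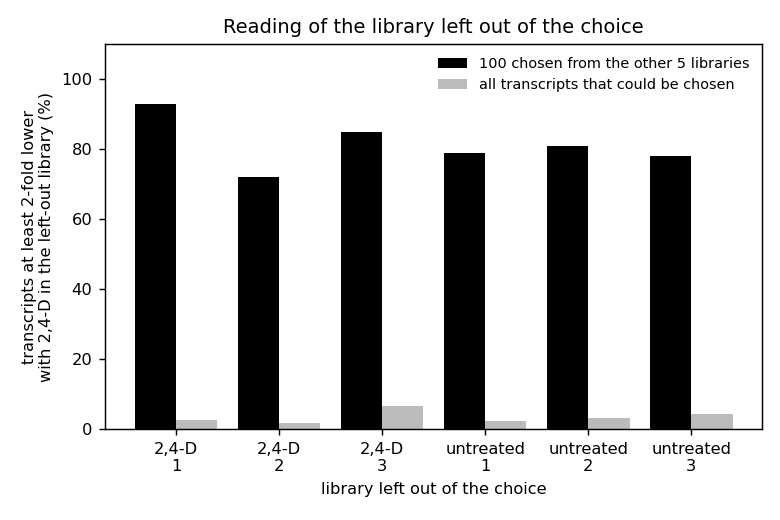
Black bars give the percentage of 100 transcripts, chosen from 5 libraries, that were at least 2-fold lower with 2,4-D when the library named below the bar was read, and grey bars the same for all transcripts that could have been chosen. The other group's value in each ratio took part in the choice. Black bars run from 72% to 93% and grey bars from 1.86% to 6.55%.

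Exon structure was not used in the choice. The lost transcripts had a median of 3 exons (quartiles 2 and 5), against 4 in the ranked transcripts (quartiles 2 and 8). The excess lay at 2 exons, with 30 of the 100 against 17.2% of the ranked transcripts, while 13 had 1 exon (12.6% of ranked) and 17 had 3 exons (13.1% of ranked). Transcripts with 10 or more exons made up 10 of the 100 and 18.0% of the ranked ones. Exonic length was also shorter, with a median of 1438 bp against 1723 bp, and 23 of the 100 were under 1000 bp, against 15.7%. The span from first to last exon had a median of 2327 bp, against 3330 bp. These are descriptions, since transcripts are not replicates.

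Levels differed among the exon classes of the set. Transcripts with 2 exons had median levels of 4.41 CPM per kb with 2,4-D and 27.9 CPM per kb untreated. Those with 1 exon had 0.706 and 6.32 CPM per kb in the same order, and those with 3 exons 2.58 and 20.1. Levels were 2.52 and 12.9 at 4 to 9 exons, and 2.84 and 38.5 at 10 or more. The median share left was 13.8% at 1 exon and at 2 exons, and 17.3% at 3. It was 18.4% at 4 to 9 and 20.4% at 10 or more. The classes hold 10 to 30 transcripts each, and their levels were not set beside those of the ranked transcripts. The shortest were Bradi4g05740.1 (399 bp, 2 exons), Bradi1g17884.1 (422 bp, 2 exons) and Bradi1g03810.1 (495 bp, 1 exon). Bradi1g03810.1 had 0.825, 0.652 and 0.460 CPM with 2,4-D, against 6.39, 2.12 and 5.52 CPM untreated. The longest were Bradi5g27540.1 (5067 bp, 11 exons), Bradi3g20867.1 (3631 bp, 3 exons) and Bradi4g13480.1 (3573 bp, 2 exons). Bradi5g27540.1 (chromosome 5, 28393893 to 28400663) had 49.6, 63.5 and 60.3 CPM with 2,4-D, against 379, 250.3 and 228 CPM untreated. Bradi4g05740.1 (chromosome 4, 4790771 to 4791614) averaged 8.50 ± 4.18 CPM with 2,4-D and 67.0 ± 23.9 CPM untreated, and Bradi4g13480.1 (chromosome 4, 13810101 to 13815092) averaged 30.1 ± 3.29 and 104 ± 21.1 CPM (SD, n = 3 each).

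The 10 transcripts of the set with 10 or more exons included 3 on chromosome 4 with almost the same exon sizes. Bradi4g43620.2 and Bradi4g26380.1 share a run of 9 consecutive internal exons of identical size, although they lie in different parts of the chromosome. Bradi4g26380.1 shares a run of 8 with Bradi4g43580.2 (chromosome 4, 47365005 to 47369749, minus strand, 17 exons), and Bradi4g43620.2 shares a run of 5 with it. The longest run of Bradi4g26380.1, of 15 exons, is with the transcripts of Bradi4g43590, a locus outside the set. These stayed at or below 0.319 CPM in every library, and Bradi4g43620.2 shares a run of 9 with them. Bradi4g43580.2 was lost less, with 14.6, 17.7 and 24.7 CPM with 2,4-D, against 73.4, 109.0 and 94.8 CPM untreated. Its untreated values did not follow the steep order of the other two.

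A search of the whole table for runs of at least 5 such exons found 16 further transcripts at 7 loci with the structure of these 3. Of the 16, 15 stayed below the untreated minimum of 2 CPM and reached at most 3.61 CPM in any library, 8 of them with 0 counts throughout. The remaining transcript, Bradi4g26366.2 (chromosome 4, 31654140 to 31667522, 17 exons), is annotated next to Bradi4g26380.1 on the same strand. It had 117, 69.6 and 112 CPM with 2,4-D, against 48.6, 48.9 and 29.4 CPM untreated (log2 fold change 1.14, edgeR adjusted p = 0.120). Its libraries did not overlap between the groups, in the direction opposite to Bradi4g26380.1, and it did not pass the test. Only exon sizes were compared, not sequences. If the sequences are also alike, these transcripts may share reads. How the alignment treated such reads is not given in the sources used here, so the division of counts among the transcripts is uncertain.

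**Figure D5:**
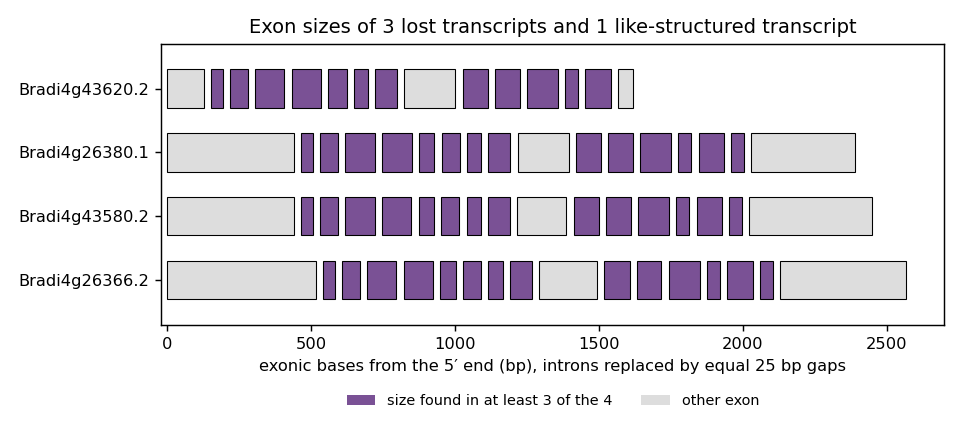
Exons are drawn to scale from the 5′ end with introns replaced by equal gaps, for 3 lost transcripts and for Bradi4g26366.2, which was not lost. Purple exons have a size found in at least 3 of the 4 transcripts, and they make up most of the internal exons in every row.

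The same search covered the other transcripts of the set. Of the 21 with at least 7 exons, 11 had a transcript at another locus with at least 5 identical consecutive internal exons, as had 34.5% of the 4684 ranked transcripts with that many exons. Outside the chromosome 4 group, 11 like-structured transcripts that are not in the set passed the untreated minimum. They kept a median of 89.3% of their untreated mean. In 3 of the 11 every 2,4-D library lay below every untreated one, against 11.8% of all ranked transcripts. Bradi1g17891.1 (chromosome 1, 14484338 to 14491729, 15 exons) averaged 4.50 ± 1.99 CPM with 2,4-D and 62.5 ± 40.0 CPM untreated, whereas Bradi3g03490.1, with a run of 6 in common, averaged 146 ± 9.98 CPM with 2,4-D and 137 ± 35.5 CPM untreated. Bradi5g21330.1 averaged 2.17 ± 0.139 CPM with 2,4-D and 8.61 ± 2.43 CPM untreated, and Bradi4g38400.1, with a run of 8 in common, averaged 161 ± 22.2 CPM with 2,4-D and 148 ± 18.5 CPM untreated. Bradi2g02800.1, with means of 20.1 ± 6.17 CPM with 2,4-D and 64.8 ± 12.4 CPM untreated, shared 9 with Bradi1g67200.1, which averaged 49.7 ± 2.04 CPM with 2,4-D and 78.5 ± 3.28 CPM untreated (SD, n = 3 for each).

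By position, 25 of the 100 lay on chromosome 4, which holds 15.9% of the ranked transcripts. Chromosome 1 had 21 (29.4% of ranked), chromosomes 2 and 3 had 22 each (22.9% and 22.6%) and chromosome 5 had 10 (9.12%). The chromosome 4 transcripts held 54.3% of the untreated counts of the set, most of it in Bradi4g09257.1. Along the chromosomes the set was placed much as the ranked transcripts were, with 28 of the 100 in the outer 10% of either end, against 27.3%.

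Some of the lost transcripts were neighbours. With loci ordered along each chromosome among those with a ranked transcript, 16 of the 99 loci lay directly beside another one of the set, in 7 runs. In 5 of the 7 runs all transcripts had the same number of exons, and in 6 they lay on the same strand. Among all 14514 such loci, 11.98% of neighbouring pairs had the same exon number and 52.6% the same strand. Those shares are for pairs, whereas some runs hold 3 loci, so they are not a like measure. How many loci of a set of this size would lie side by side was not worked out.

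The run with the highest untreated level was the pair Bradi4g06533.1 and Bradi4g06536.1, described above, with 719 and 718 bp of exon on opposite strands. They summed to 13.2 CPM with 2,4-D and 826 CPM untreated. The run on chromosome 4 from 47365005 to 47389440 joined Bradi4g43580.2, Bradi4g43610.1 and Bradi4g43620.2, and summed to 32.7 CPM with 2,4-D and 721 CPM untreated. Bradi4g43610.1, with 3 exons, does not share the many-exon structure of the transcripts on both sides of it.

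On chromosome 2, from 38971891 to 38998239, Bradi2g38685.1, Bradi2g38690.1 and Bradi2g38700.1 followed each other on the plus strand with 2 exons each. Bradi2g38685.1 had 13.6, 3.55 and 5.45 CPM with 2,4-D, against 68.8, 122 and 50.9 CPM untreated. Bradi2g38690.1 had 34.5, 56.1 and 32.2 CPM with 2,4-D, against 213, 407 and 151 CPM untreated. Bradi2g38700.1 had 31.0, 44.5 and 26.8 CPM with 2,4-D, against 142, 319 and 139 CPM untreated. In all 3 untreated replicate 2 was the highest, which differs from the order in the 6 highest ratios. Another transcript of the set, Bradi2g38670.1, also has 2 exons and lies 1 locus away, across Bradi2g38680.1, which averaged 3.06 ± 2.75 CPM with 2,4-D and 12.7 ± 10.3 CPM untreated (SD, n = 3 each).

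On chromosome 3, from 51561332 to 51575565, Bradi3g50263.1 and Bradi3g50267.2 have 7 exons each on the minus strand. Bradi3g50267.2 had 18.0, 14.6 and 5.98 CPM with 2,4-D, against 178, 120.7 and 98.7 CPM untreated. Bradi3g50263.1 had 12.1, 11.8 and 7.44 CPM with 2,4-D, against 63.3, 61.7 and 46.0 CPM untreated. In both, 2,4-D replicate 3 was the lowest library.

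At loci with several annotated transcripts, the counting left out fragments in shared exons, so levels there rest on few bases. Such loci gave 14 of the 100, against 10.1% of the ranked transcripts. Bradi3g59390.1 (chromosome 3, 58639455 to 58643154) rests on 557 bp of its own and averaged 9.97 ± 7.03 CPM with 2,4-D and 102 ± 10.6 CPM untreated. Bradi3g59390.2, from the same locus and also in the set, rests on 60 bp and averaged 1.29 ± 0.744 and 8.21 ± 2.22 CPM in the same order. Bradi5g14410.1 (chromosome 5, 17925630 to 17929867) rests on 218 bp and averaged 12.3 ± 2.74 CPM with 2,4-D and 63.1 ± 3.70 CPM untreated. Bradi2g19857.1 (chromosome 2, 17471620 to 17474675) rests on 551 bp and averaged 5.29 ± 1.36 and 37.2 ± 9.94 CPM. The second transcript of each of these last 2 loci has no bases of its own and had 0 counts. Bradi1g53160.1 (chromosome 1, 51773274 to 51778427) averaged 9.11 ± 1.89 CPM with 2,4-D and 32.6 ± 3.45 CPM untreated. Bradi2g58987.1 (chromosome 2, 56804069 to 56805965) averaged 5.27 ± 1.42 CPM with 2,4-D and 22.6 ± 4.28 CPM untreated (SD, n = 3 for each mean of this paragraph).

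At a few of these loci the transcripts could be compared with each other. Bradi5g25320.2 averaged 3.75 ± 0.347 CPM with 2,4-D and 12.2 ± 2.19 CPM untreated, while Bradi5g25320.1 averaged 7.99 ± 1.53 and 9.95 ± 1.48 CPM. Bradi5g26350.1 averaged 0.942 ± 0.255 CPM with 2,4-D and 3.02 ± 0.153 CPM untreated, while Bradi5g26350.3 averaged 7.43 ± 1.45 and 6.65 ± 2.49 CPM. At both loci the groups of the other transcript overlapped. At the locus of Bradi1g04870.4, which averaged 2.65 ± 1.03 CPM with 2,4-D and 12.6 ± 3.50 CPM untreated, the second transcript, Bradi1g04870.1, was also lower, at 36.8 ± 5.51 and 100.03 ± 15.8 CPM (SD, n = 3 for each). Bradi1g53160.2, from the locus of Bradi1g53160.1, was also lower without overlap, at 1.04 ± 0.242 CPM with 2,4-D and 2.89 ± 1.31 CPM untreated. Both transcripts of Bradi3g59390, given above, are in the set. The difference between transcripts of a locus was not tested. A further 3 of the 100 (Bradi4g03320.1, Bradi3g49300.1 and Bradi5g16060.1) share exonic bases with a transcript of another locus. Fragments there were left out in the same way, so their counts rest on 622, 966 and 1259 bp of their own.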

How the data were processed

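RNA of 6 Bd21 root samples was sequenced after strand-specific mRNA library preparation, per the labels' protocols. The deposited values are raw counts per transcript, not normalized by the authors. Per the file headers, it was made with featureCounts 1.4.3 on annotation version 2.1, which counted paired reads once when 50 to 1000 bp apart, with no option set for strand or for fragments that fall in several transcripts. The aligner's settings are not given in the sources used here.

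CPM here is the count over the column sum, times 1000000. The members and the comparisons were chosen with earlier results of these data known. Transcripts named are the highest ratios, the most abundant, the longest and shortest, those of the 4 runs with the highest level, those of loci with several transcripts, and those at the edge of the set. Others, such as the like-structured transcripts, were chosen after their values were seen. Calls over the whole table came from edgeR 4.0.16 (R 4.3.3), using TMM scaling, the default filter by group with a minimum count of 10, and the robust quasi-likelihood F test. Run on simulated counts, edgeR missed most transcripts given the smaller decreases, so a transcript not called is not shown to be unchanged. Alternatives were other scalings, floors and filters, DESeq2 1.42.0, limma 3.58.1 with voom, a block for the replicate number, and each library left out in turn. Floors cover counting error only, and p-values weigh the difference between the groups against the spread between these samples.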

Additional observations from a re-analysis of the deposited data

How the results depend on the processing

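Of the 100 transcripts, 79 to 100 stayed among the 100 highest when the floor, the untreated minimum, the scaling or the counting per locus was altered, 68 to 88 when a library was left out, and 65 when group means were used in the ratio. The shares of counts with 2,4-D and in untreated roots were 0.0872% and 0.748% for the first 50 of the ranking, 0.136% and 1.03% without the 100 most abundant transcripts of the table, and, added after the data were seen, 0.117% and 0.864% without the 2 most abundant of the set. Leaving out a library moved them within 0.295% to 0.361% and 1.81% to 1.87%. Median exon number ran from 2 to 3 and exonic length from 1332.5 to 1438 bp over the alternatives tried. Loci beside another of the set numbered 16 to 19 with a library left out, 12 when all annotated loci were ordered and 27 with up to 2 loci in between. Against 141 transcripts called lower by edgeR over the table, 77 of them in the set, the DESeq2 Wald test called 1011 and 100. Leaving out a library gave 0 to 94 and 0 to 53. The cause was not tested, though such fits hold fewer samples. Libraries that share a number deviated from their groups with correlations of -0.093, 0.350 and 0.093, and some libraries were closer to another number, so the numbers are not shown to pair the libraries. With the replicate block, 61 and 40 were called.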

Other observations

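Of 11 ranked transcripts lying between lost ones with up to 2 loci in between, 2 had every 2,4-D library below every untreated one, 1 had every 2,4-D library above, and in 8 the groups overlapped. Among all ranked transcripts, 11.8% had every 2,4-D library below every untreated one. The mean was lower with 2,4-D in 8 of the 11, against 6766 of the 14661 ranked transcripts. The 2 that were lower without overlap were Bradi4g03340.1, with 3.61 ± 1.44 CPM with 2,4-D and 8.77 ± 2.42 CPM untreated, and Bradi4g11410.2, with 1.52 ± 0.440 and 3.45 ± 0.654 CPM. Bradi2g11320.1, with 2 exons, lies between Bradi2g11300.1 and Bradi2g11337.1 on chromosome 2 and averaged 716 ± 114.9 CPM with 2,4-D and 284 ± 58.0 CPM untreated. Bradi2g11307.1, in the same stretch, averaged 2.96 ± 2.52 and 9.26 ± 3.93 CPM. Bradi4g05736.1, with 1 exon, lies between Bradi4g05733.1 and Bradi4g05740.1 and averaged 12.05 ± 1.85 CPM with 2,4-D and 8.33 ± 4.35 CPM untreated. Bradi4g06560.1, between Bradi4g06536.1 and Bradi4g06611.1, averaged 17.1 ± 1.44 and 20.3 ± 2.94 CPM (SD, n = 3 for each).

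A pair of neighbours on chromosome 1, Bradi1g17884.1 with 2 exons and Bradi1g17891.1 with 15 exons, had the same order of untreated libraries, with replicate 2 highest and replicate 3 lowest. Bradi1g17884.1 had 1.05, 1.30 and 0.614 CPM with 2,4-D, against 19.9, 30.2 and 5.59 CPM untreated. Bradi1g17891.1 had 5.32, 5.94 and 2.22 CPM with 2,4-D, against 67.6, 99.7 and 20.2 CPM untreated.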
